A study of Mus musculus with 2 samples.

Results

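The genes described here are the transcription factors and regulators at the end of the Hippo pathway: Tead1, Tead2, Tead3, Tead4, Yap1, Wwtr1, Lats1, Lats2, Amotl2 and Vgll4. They were chosen by name, 10 of 21938 protein-coding genes of the GENCODE M21 annotation, with no threshold on a measured value. For each gene, every accessible site that overlapped the gene body or the 50 kb on either side of it was collected from both libraries. These windows held 94 sites, of 51228 in the genome.

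The Hippo pathway restrains growth in epithelia and other tissues. Its last kinases, LATS1 and LATS2, phosphorylate the co-activators YAP (gene Yap1) and TAZ (gene Wwtr1), which then stay in the cytoplasm or are degraded. When the kinases are quiet, YAP and TAZ enter the nucleus and bind the TEAD proteins, which carry the DNA-binding domain and recognise GGAATG. In the bladder the pathway is known from the stretched urothelium and from its regeneration after injury. A TEAD protein bound by VGLL4 instead of YAP is held in a repressed state, and AMOTL2 ties YAP to cell junctions.

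DNase-seq maps chromatin that the nuclease DNase I can cut. The tissue was whole urinary bladder taken at an age of 36 days from B6CASTF1/J males, F1 animals with a C57BL/6J and a CAST/EiJ parental genome. All samples form 1 group of 2 libraries, named replicate 1 and replicate 2, so no condition was compared and no test was possible. The labels give the libraries different male numbers but the same donor entry. They were treated as separate animals, and if they were not, the spread given here is technical. Each library is a mixture of the cell types of the bladder wall, and a site open in few cells cannot be told apart from one weakly open in many.

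The libraries held 38674 and 47661 peaks, and 61.7% of all sites were found in both. Peak heights were multiples of a step of 0.0113 in replicate 1 and of 0.00893 in replicate 2, a ratio of 1.27. The absolute depth is unknown. Of the fixed marker genes, 9 of 10 for urothelium, 4 of 8 for smooth muscle, 2 of 5 for fibroblasts, 2 of 5 for endothelium, 2 of 5 for immune cells and 0 of 8 for other tissues had an accessible start in both libraries. Over all protein-coding genes the share was 56.3%. The smooth muscle genes Acta2, Tagln, Cnn1 and Des were among the markers with none. These counts used the shorter of the deposited peak lists. In the longer one, 6 of the 8 smooth muscle genes had an accessible start in both libraries (all protein-coding genes, 61.4%). Acta2 and Des were among them, and Tagln and Cnn1 were not.

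Sequences that hold the TEAD word GGAATG (both strands searched) in the central 200 bases of an accessible start site of these genes are shown first, since they mark where the DNA that TEAD proteins recognise lies in the promoters of the pathway's own genes. Each is given 5′ to 3′ on the strand that reads GGAATG, with the word in capitals and 10 bases on each side, from the mm10 assembly.
Tead1, chr7:112679333-112679358, minus strand: aatgaggacaGGAATGaaatgaacgc
Tead1, chr7:112679345-112679370, minus strand: aagaatgtgcGGAATGaggacaggaa
Yap1, chr9:8004722-8004747, minus strand: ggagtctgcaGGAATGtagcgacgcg
Wwtr1, chr3:57576219-57576244, plus strand: cccagcacccGGAATGtggcacgggg
Lats2, chr14:57746104-57746129, minus strand: tgacgcccgtGGAATGccaacaatgt
Amotl2, chr9:102717523-102717548, plus strand: agggtggcagGGAATGaatgccgcac
Vgll4, chr6:114969002-114969027, plus strand: aggaatccctGGAATGaggcgcagcc
Vgll4, chr6:114969814-114969839, minus strand: gtgaagtactGGAATGggagggaacc
These 8 words lay in 7 start sites of 6 genes. Tead1 carried 2 words, 12 bases apart from first base to first base, in the opposite orientation to the gene. The Lats2 word lay 5 bases from an annotated start of Lats2, and the Yap1 word 138 bases from the nearest start of Yap1. A match of letters does not show that a TEAD protein was bound.

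Start peaks were present for nearly the whole set. A start peak here is one that reaches within 500 bases of an annotated start of the gene. In replicate 1 and in replicate 2 alike, 9 of the 10 genes had one, where the share over all protein-coding genes was 57.8% in replicate 1, 58.6% in replicate 2 and 56.3% in both. The exception was Tead2. Each gene's tallest start peak was ranked against every start peak in the same library, as a percentile with 0 for no peak. Over the 10 genes the median percentile was 64.8 in replicate 1 and 70.2 in replicate 2. Over all protein-coding genes the medians were 30.9 and 34.8. A gene with more annotated starts has more chances of a peak. The 10 genes had 2 to 16 starts each, and the comparison was not matched for that number.

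**Figure D1:**
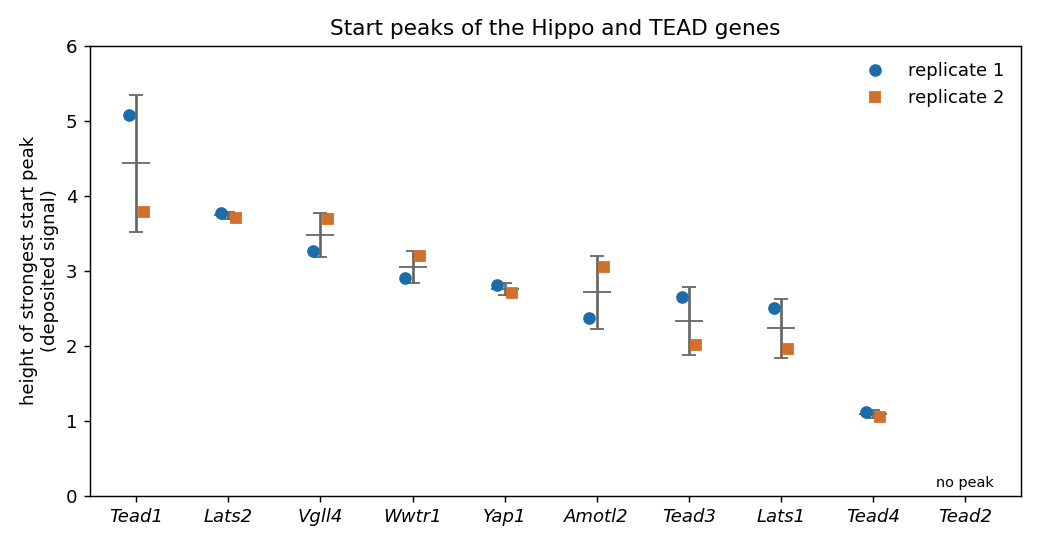
Height of the strongest start peak (y axis, deposited signal) of each gene (x axis, by mean height) in replicate 1 (circles) and replicate 2 (squares), with the mean and SD of both (grey bars). Tead1 leads with 5.08 and 3.79, Tead4 has 1.12 and 1.05, and Tead2 has no peak in either library.

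Among the TEAD genes the start peaks differed widely. Tead1, the broadly expressed member of the family in many adult tissues, had a start peak of height 5.08 in replicate 1 and 3.79 in replicate 2 (mean 4.43 ± 0.914, SD, n = 2). Tead3 stood at 2.65 and 2.01 (mean 2.33 ± 0.455). Tead4, known for its role in the trophectoderm of the early embryo, stood at 1.12 and 1.05 (mean 1.09 ± 0.0486). The ranges of the 3 genes did not overlap over the libraries, and the order Tead1, Tead3, Tead4 was the same in both libraries.

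Tead2, a TEAD gene known from the early embryo and the neural tube, had no peak within 500 bases of any of its 16 annotated starts. It had none inside the gene body either. In the longer peak list that the authors deposited, where the count rose to 10 of the 10 genes (all protein-coding genes, 61.4%), a weak peak appeared at chr7:45216526-45216673 with a height of 0.850 in replicate 1. In replicate 2 the longer list had one at chr7:45216601-45216705 with a height of 0.705. The lowest per-site false discovery rate (FDR) near a Tead2 start was 0.00610 in replicate 1 and 0.0288 in replicate 2, whereas it was 2.08e-25 and 1.27e-12 for Tead1. The window of Tead2 was not closed as a whole: 4 sites were present in both libraries, at the starts of Ccdc155 and Slc6a21 and at 2 places with no annotated start, with heights of 1.18 to 2.38.

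The co-activator genes had similar start peaks. Yap1 stood at 2.81 in replicate 1 and 2.71 in replicate 2 (mean 2.76 ± 0.0750, SD, n = 2). Wwtr1, which encodes TAZ, stood at 2.90 and 3.20 (mean 3.05 ± 0.208). Wwtr1 was above Yap1 in both libraries and their ranges did not overlap.

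The kinase genes were unlike each other. Lats2 stood at 3.78 and 3.71 (mean 3.74 ± 0.0493), the second highest of the 10 genes by mean and the one with the smallest spread in percentile among the 9 with a start peak (81.5 ± 0.0881). Lats1 stood at 2.51 and 1.96 (mean 2.23 ± 0.389). The main Lats1 site lay also within 500 bases of a start of Pcmt1, a protein repair methyltransferase gene, so the height cannot be assigned to Lats1 alone. The Yap1 site lay likewise near a start of the gene model Gm45494.

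Amotl2, an angiomotin family scaffold and itself a gene that YAP is known to activate, stood at 2.37 and 3.05 (mean 2.71 ± 0.484). Vgll4, which encodes the TEAD co-repressor, stood at 3.27 and 3.69 (mean 3.48 ± 0.299). By mean height, the neighbours Yap1 and Amotl2, Amotl2 and Tead3, and Tead3 and Lats1 had overlapping ranges over the libraries. The steps from Tead1 to Lats2, Lats2 to Vgll4, Vgll4 to Wwtr1, Wwtr1 to Yap1 and Lats1 to Tead4 did not overlap. Heights carry a scale of their own in each library. On percentiles within a library the same steps overlapped or not, except that Vgll4 (73.8 and 81.3) and Wwtr1 (67.7 and 74.7) overlapped.

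Several of these genes have many annotated starts, and the peaks lay at some of them only. Of the 13 starts of Tead1, the 4 within 192 bases of the gene's 5′ end had a peak in both libraries. The 9 others, from 12380 to 160316 bases inside the gene and including a group near 80066 bases, had none. Lats2 showed the reverse: its most 5′ start had no peak, and 4 starts from 11810 to 12283 bases inside the gene shared the peak of height 3.78 and 3.71. The gene model Gm49361 also starts there.

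Vgll4 was accessible at 3 separate places along its 109-kb body that coincide with its starts. Starts at the 5′ end and 814 bases inside it had peaks of 1.89 and 1.62, and of 2.91 and 3.59. A start 48173 bases inside had 1.37 and 1.29. The tallest, of 3.27 and 3.69, lay at starts 94887 and 94974 bases inside, near the 3′ end of the gene. In all, 6 of the 7 Vgll4 starts had a peak in both libraries, compared with 6 of 9 for Tead3, 5 of 7 for Yap1, 6 of 13 for Amotl2, 3 of 4 for Tead4, 2 of 2 for Wwtr1 and 1 of 2 for Lats1. In Amotl2, too, the tallest peak was not at the first start but at those 617 and 996 bases inside.

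The promoter of Tead1 held a further feature. Footprints are short stretches that the authors listed as protected from cutting inside accessible chromatin. A pair of them, called in both libraries at nearly the same bases, lay just upstream of the most 5′ Tead1 start, position 112679318 of chromosome 7. Each held the palindrome TGACGTCA, the cyclic AMP response element word that CREB and ATF proteins recognise. The bases common to both libraries' footprints are given on the plus strand, with that word and any GC box word (GGGCGG, either strand) in capitals.
Tead1, chr7:112679236-112679271: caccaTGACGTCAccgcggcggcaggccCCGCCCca
Tead1, chr7:112679283-112679308: gcggcaTGACGTCAccgaggccccac
The first was 36 bases wide in replicate 1 and 40 in replicate 2, and the second 26 and 34. Of all 16050 shared start sites, 2.58% held TGACGTCA in the central 200 bases and 11 held it more than once, the Tead1 site among them. This word was searched after the footprint sequences had been seen. Of the 19 shared start sites of the 10 genes, 2 held it, the other at Amotl2.

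The share of start sites with the TEAD word was higher in these genes than in the genome. Of the 19 shared sites at the genes' own starts, 7 held GGAATG in the central 200 bases (36.8%, exact Clopper-Pearson 95% interval 16.3 to 61.6, counting error only), where all 16050 shared start sites gave 6.7%. Of the 14 shared sites at starts of other genes in the same windows, 0 held it (95% interval 0 to 23.2). That interval includes the 6.7% and overlaps the interval of the own starts. Counted by gene, 4 of the 9 genes with a shared start site had the word in the tallest one, Tead1, Yap1, Lats2 and Amotl2, and the share over 12316 protein-coding genes was 6.27%. For any start site the count was 6 of 9, with Wwtr1 and Vgll4 added, and the share over all genes 8.63%.

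These genes had 2.11 shared start sites each on average, compared with 1.35 over all genes, which raises the number of windows searched per gene. Over the whole length of the sites the density was 1.90 words per kb in the genes' own start sites and 0.367 in all shared start sites. The reversed word GTAAGG, of the same composition, was found in 0 of the 19 sites and in 4.43% of all shared start sites. With only 19 sites, a count of 0 cannot be told apart from that share. The split into own starts and other classes was made after the values had been seen, so these shares are descriptions. The count of 7 fell to 4 in central windows of 100 bases. For the longer word GGAATGT it fell to 2 (10.5%), beside 1.45% of all shared start sites.

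**Figure D2:**
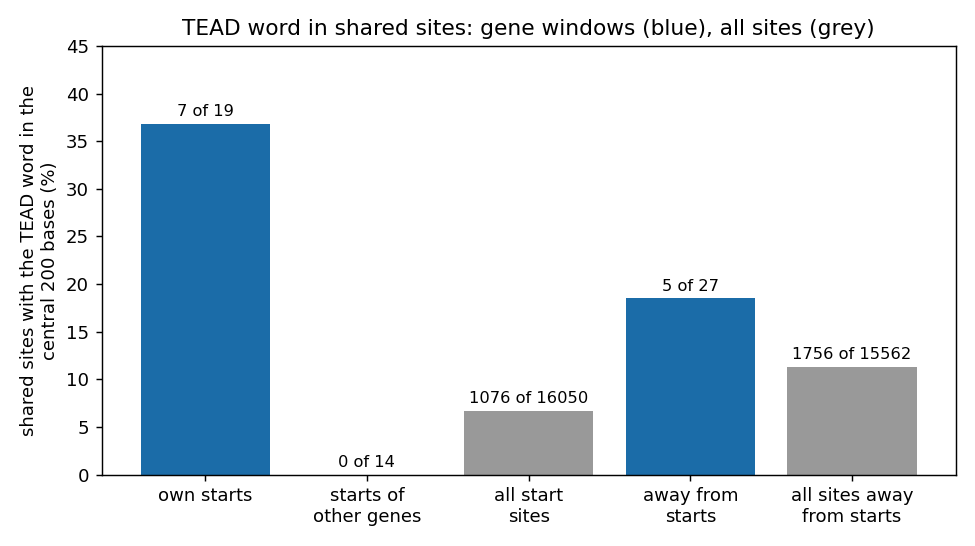
Share of shared sites (y axis, percent) with the TEAD word in their central 200 bases, for site classes of the gene windows (blue) and all shared sites of the genome (grey), with the counts above the bars. The own starts give 7 of 19 and all start sites 6.7%; away from starts, 5 of 27 and 11.3%.

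Away from starts, 5 of 27 shared sites of the windows held GGAATG (18.5%), beside 11.3% of all shared sites away from starts. Together with the starts this made 12 of 60 (20%), beside 8.96%. Of the other words searched on both strands, the AP-1 word TGANTCA was in 2 of the 27 sites (7.41%, all 12.4%), the ETS word CCGGAAG in 4 of the 60 (6.67%, all 7.57%) and the GC box in 24 of the 60 (40%, all 36.8%). The grainyhead word AACNNGTT, recognised by GRHL factors of epithelia, was in 0 of the 60 (all 2.93%).

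The sequences of 3 of the sites away from starts with the TEAD word are shown on the plus strand for the words they hold. An intron site of Tead4, with heights of 1.12 and 0.991, held an AP-1 word and the TEAD word with 3 bases between them, both in capitals. No footprint inside the peaks touched either word in either library. The site also held a CTCF word, described below.
Tead4, chr6:128285841-128286066: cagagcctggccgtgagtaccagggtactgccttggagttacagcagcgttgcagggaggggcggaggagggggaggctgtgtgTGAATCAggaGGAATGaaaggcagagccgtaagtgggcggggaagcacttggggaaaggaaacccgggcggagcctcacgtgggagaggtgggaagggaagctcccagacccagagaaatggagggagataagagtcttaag
A site in the flank of Amotl2, with its words 48913 to 48955 bases from the nearest Amotl2 start, had heights of 3.65 and 3.0. It held 3 TEAD words, of which CATTCC is the word on the other strand. None of the 3 was touched by a footprint in either library. The site also held a CTCF word, described below, which lay inside footprints of both libraries.
Amotl2, chr9:102779621-102779840: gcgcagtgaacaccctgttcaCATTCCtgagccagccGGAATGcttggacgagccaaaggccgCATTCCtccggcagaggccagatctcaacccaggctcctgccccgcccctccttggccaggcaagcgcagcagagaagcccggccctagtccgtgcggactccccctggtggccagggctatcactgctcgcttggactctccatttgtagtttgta
It overlapped the gene model Gm47416, and no expression was measured to link it to Amotl2. An intron site of Wwtr1 with heights of 0.714 and 0.696 held GGAATGT, the longer form of the word. A footprint touched its GGAATG in replicate 2 and none did in replicate 1.
Wwtr1, chr3:57471077-57471280: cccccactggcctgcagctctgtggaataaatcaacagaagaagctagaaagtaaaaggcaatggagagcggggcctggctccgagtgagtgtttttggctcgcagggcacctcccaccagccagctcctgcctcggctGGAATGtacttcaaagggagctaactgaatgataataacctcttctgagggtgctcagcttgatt

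Inside peaks, 0 of the 60 shared sites had a footprint over GGAATG in both libraries, beside 1.19% of all shared sites, and 6 had one in at least 1 library (10%, all shared sites 3.24%), counting words anywhere in the site. Of the 15 words in the central windows, 2 were touched by a footprint in replicate 1 and 4 in replicate 2. The Vgll4 word at chr6:114969012-114969017 was touched in both, although the footprint of replicate 1 lay just outside that library's narrower peak. A word without a listed footprint is not shown to be unbound.

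Inside the gene bodies and away from any start, 10 sites were found in both libraries, in 6 of the 10 genes. The share of all protein-coding genes with such a site was 21.6%. Tead1 had 4, Wwtr1 had 2, and Tead3, Tead4, Lats2 and Amotl2 had 1 each. Pooled over the bodies this was 1.31 sites per 100 kb, beside 0.700 for all protein-coding genes. Tead1 is 227 kb long and had 1.76 per 100 kb, while Yap1, Lats1, Vgll4 and Tead2 had none. The count rested on which peaks were used: it was 28 with the longer list, 1 with the stronger 50% of the peaks by height, 12 in replicate 1 alone and 23 in replicate 2 alone.

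**Figure D3:**
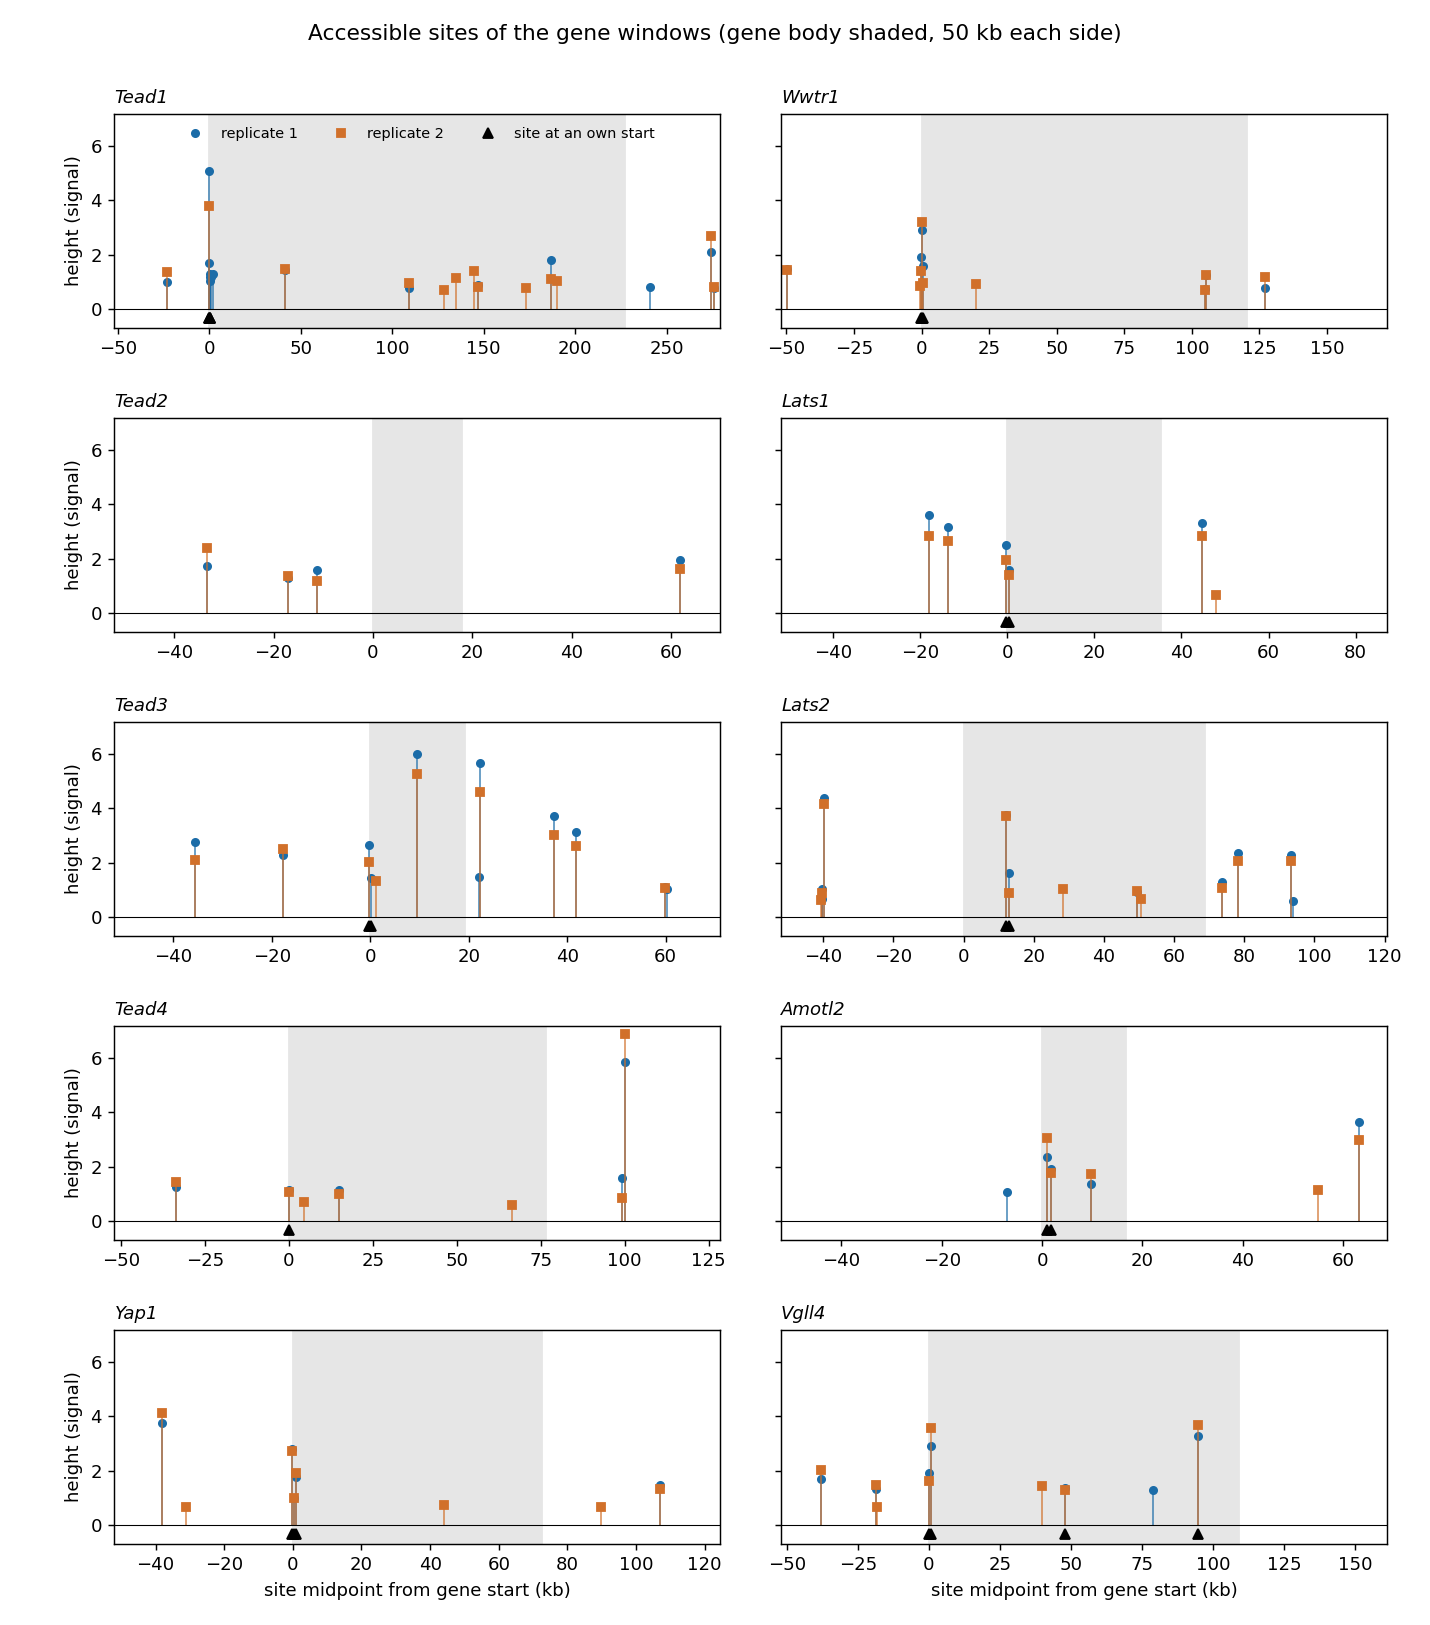
Sites of each gene window by distance from the gene's 5′ end (x axis, kb, along the direction of the gene) and height (y axis, deposited signal) in replicate 1 (circles) and replicate 2 (squares). Gene bodies are shaded and triangles mark sites at the gene's own starts; the Tead3 intron site of 6.00 and 5.27 is taller than that gene's start peak, and Tead2 has no site in its body.

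The tallest of these 10 sites belonged to Tead3. It stood at 6.00 in replicate 1 and 5.27 in replicate 2, percentiles 98.7 and 97.4 among all peaks of those libraries, and was taller than the Tead3 start peak in both. Its midpoint lies 9566 bases from the 5′ end of this minus-strand gene. It covers the end of exon 2, of which it takes in the last 12 bases, coding in 4 of the 5 transcripts with that exon, and the start of the intron that follows. The sequence is given on the plus strand, with the bases that lie inside footprints of both libraries in capitals.
Tead3, chr17:28341141-28341360: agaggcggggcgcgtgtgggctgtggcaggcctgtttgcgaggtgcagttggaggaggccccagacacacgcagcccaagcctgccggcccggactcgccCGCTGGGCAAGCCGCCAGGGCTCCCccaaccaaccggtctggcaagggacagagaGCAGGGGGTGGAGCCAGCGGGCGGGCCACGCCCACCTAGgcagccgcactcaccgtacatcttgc
The right-hand footprint, chr17:28341296-28341334, had the same first and last base in both libraries and holds a GC box word. No TEAD word was found in this site.

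The other strongest gene-body sites were lower. That of Tead1, 186612 bases from its start, had heights of 1.80 and 1.11 and held a CTCF word. An earlier Tead1 site, at 41523 bases and with heights of 1.44 and 1.46, held an AP-1 word. That of Amotl2 had 1.36 and 1.72, that of Wwtr1 had 1.25 and 1.26, that of Lats2 had 0.918 and 0.938, and the Tead4 site shown above had 1.12 and 0.991. Among the 6 genes with such a site, it was taller than the start peak in Tead3 only, and in Tead4 both had the same height in replicate 1.

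In the flanks, the words of CTCF, the factor that anchors chromatin loops, were frequent. A word of CTCF (CC, 3 free bases, AG, 1 free base, GGG, both strands) was in 8 of 17 shared flank sites, and 10 of the 27 shared sites away from starts held it (37.0%), beside 24.8% of all such sites. A longer word (CCA, 2 free bases, AG, 2 free bases, GGC), searched later, was in 9 of the 17 (52.9%). It was in 1 of the 10 shared gene-body sites. Of all shared sites away from starts, gene bodies included, 26.4% held it. Of 8 footprints wider than 25 bases that were called in both libraries in these flanks, 7 held 1 of the words. Over all 9 such wide footprints away from starts, the first word was in 4 (44.4%) and either word in 7 (77.8%). Of 3867 in the genome, 39.1% held the first word and 56.1% either. The other wide flank footprint, near Tead4 at chr6:128334583-128334609, held neither word and is not shown. The 7 with a CTCF word are given on the plus strand, cut to the bases common to both libraries, with the words in capitals.
Tead3, chr17:28308998-28309028: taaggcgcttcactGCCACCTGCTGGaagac
Tead3, chr17:28368643-28368670: ggctccctggctCCCCCTAGCGGcgaag
Tead3, chr17:28386370-28386398: gacgcCCACCAGAGGGCagcactgagtgt
Yap1, chr9:7897727-7897756: aagtgagcactGCCATCTAGTGGcgatgaa
Lats2, chr14:57680103-57680128: ttggCCACCAGGTGGCgcccactccc
Lats2, chr14:57684769-57684796: ttgaggCCAGAAGAGGGCagtggatctt
Vgll4, chr6:115007952-115007979: ctgctaacactGCCCTCTGCTGGcgaat
At starts, 8 such wide footprints were found and 0 held either CTCF word, beside 13.8% of 2898 in the genome. Footprints wider than 25 bases made up 25 of 180 in the shared sites of the windows in replicate 1 and 21 of 171 in replicate 2, beside 9728 of 93049 and 10689 of 97149 in all shared sites.

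Inside peaks, a smaller share of the genes' own start sites carried a footprint in both libraries than of start sites in general. Of the 60 shared sites, 47 did (78.3%), beside 86.2% of all shared sites. Of the 19 own start sites the share was 63.2%, beside 85.5% of all shared start sites, and of the 27 sites away from starts it was 81.5%, beside 86.9%. At the main Wwtr1 start site the peak of replicate 1 was 480 bases long and held 8 footprints, while that of replicate 2 was 60 bases long and held 0. With footprints counted over the merged site the numbers at that Wwtr1 site were 8 and 7. The share at own starts was then 73.7% beside 88.0%, and that over all 60 sites 86.7% beside 89.7%. Of 180 footprints in replicate 1 and 171 in replicate 2, 56.1% in each overlapped one of the other library, near the 58.0% and 55.0% over all shared sites. Their median width was 11 bases in each library, beside 10 in all shared sites.

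The sites found in only 1 library fell in different places. In the windows 60 of the 94 sites were shared, near the 61.7% of all 51228 sites. Of the others in the windows, 14 were in replicate 1 only (all sites, 5254) and 20 in replicate 2 only (all sites, 14362). With the longer list 96 sites were shared, and with the stronger 50% of the peaks 35. Of the 14, 9 were at a start (64.3%, all such sites 43.6%), and of the 20, 2 were (10%, all 22.1%). Of those in replicate 1, 4 were at the Tead1 start, with heights of 1.70, 1.19, 1.03 and 1.30, next to the shared peak. The sites of 1.19, 1.03 and 1.30 lay also within 500 bases of a start of the gene model 2310014F06Rik. The shared Tead1 peak overlapped that gene model but reached none of its start windows. Of the 13 gene-body sites in replicate 2 only, 5 were in Tead1, with heights of 0.696 to 1.41. Sites in 1 library were low, with medians of 1.19 and 0.755 in the windows, beside 0.828 and 0.723 over all such sites.

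At shared sites the libraries were close. The log2 ratio of height in replicate 2 over replicate 1 had a median of -0.08 and an SD of 0.32 over all 31612 shared sites, and an SD of 0.31 over the 60. Beyond 2 SD of the median were 4 of the 60 (6.67%), beside 5% of all. A flank site of Tead4 stood at 1.59 and 0.839, the second Lats2 start site at 1.62 and 0.875, and a Wwtr1 start site at 1.56 and 0.946. A Wwtr1 flank site went the other way, at 0.771 and 1.17. None of the 4 was the tallest start or gene-body site of its gene.

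**Figure D4:**
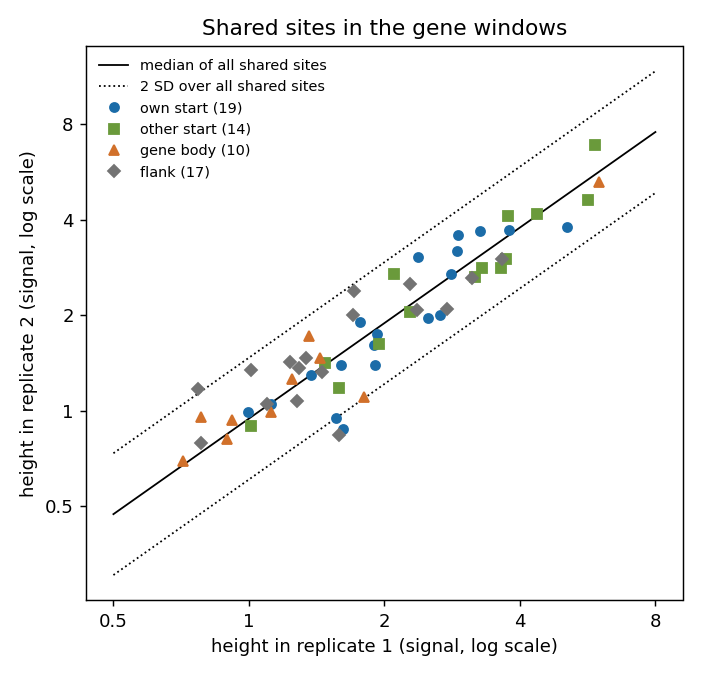
Height in replicate 1 (x axis) and replicate 2 (y axis), both on log scales, of the 60 shared sites, by class. The solid line is the median ratio over all shared sites of the genome and the dotted lines lie 2 SD of the log2 ratio from it; 4 of the 60 sites lie outside them.

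The rest of the pathway was described by lists of genes with known roles. Over all protein-coding genes, 56.3% had start peaks in both libraries and the median percentile was 32.0. Of 15 kinase and scaffold genes, 15 had start peaks in both libraries, with a median percentile of 84.2. The highest were Taok3 (98.5 ± 0.610, SD, n = 2) and Mob1b (95.8 ± 1.43), an activator of LATS, followed by Stk4 (93.6 ± 0.661), the kinase MST1 that acts above LATS. Of 13 genes for inputs from junctions and cell polarity, 12 had one, with a median of 43.3. Scrib (92.5 ± 3.21), a polarity scaffold, and Ajuba (78.5 ± 1.11), a LIM protein that binds LATS, were among the highest, and Dchs1, the protocadherin ligand of FAT4, had none.

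**Figure D5:**
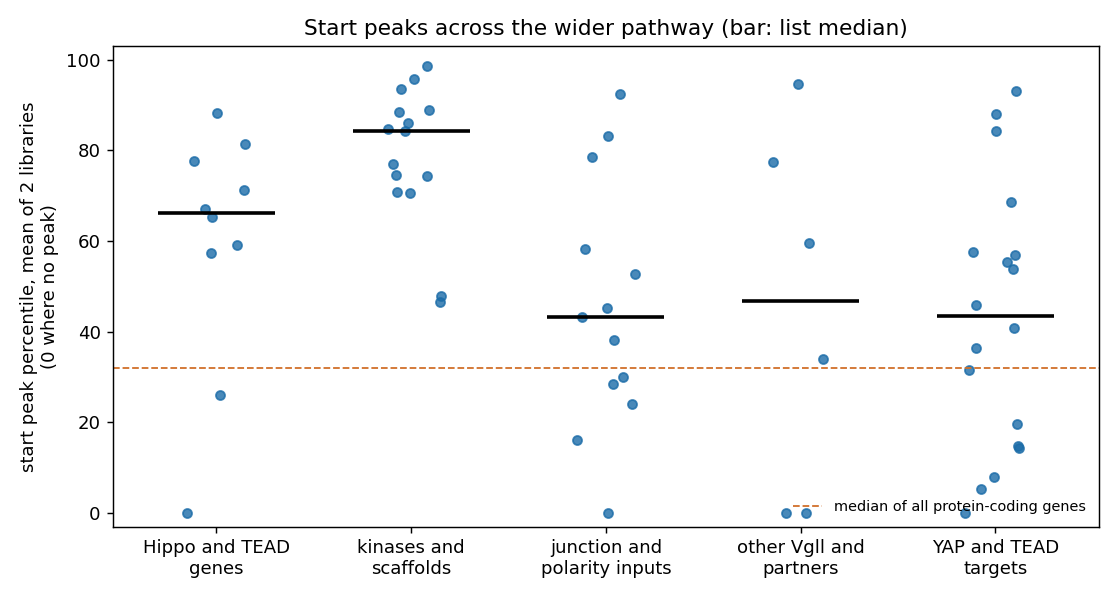
Start peak percentile (y axis, mean of both libraries, 0 where there was no peak) of each gene in 5 lists (x axis), with list medians as black bars and the median of all protein-coding genes as a dashed line. The kinase and scaffold genes have the highest median, 84.2, and the other lists reach down to 0.

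Of 6 other Vgll genes and partners, 4 had start peaks in both libraries (66.7%), beside 56.3% of all protein-coding genes. Ywhaz (94.7 ± 1.37), a 14-3-3 protein that holds phosphorylated YAP, Tcf4 (77.5 ± 3.64) and Runx1 (59.5 ± 8.91) were highest, and Vgll1 and Vgll2 had none. Of 18 YAP and TEAD target genes, 14 had one (77.8%), with a median of 43.4. Gadd45b (93.1 ± 1.82), Birc5 (88.1 ± 6.93) and Dlc1 (84.3 ± 4.08) were highest, and Ankrd1 had none. The targets Ccn1 (31.5 ± 10.4) and Ccn2 (19.6 ± 7.96), named after their values were seen because they are the usual readouts of YAP, stood beside a median of 32.0 over all protein-coding genes. An accessible start does not measure how much a gene is transcribed.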

How the data were processed

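Per the labels, DNase-seq was carried out on 2 bladder samples, which have different male numbers and the same donor entry, and the authors deposited peaks, footprints and per-site FDR values for each library separately on mm10. For the aligner and the callers, names and versions: not given in the sources used here. Reads of F1 animals were placed on an assembly that represents C57BL/6J. The deposited peak height is a signal with no stated scale, constant per library from its steps. The deposited per-site FDR values are adjusted p-values, listed up to 0.05. Each deposited footprint carries the same value, 0.01, taken as a p-value or FDR threshold, without a strength of its own.

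The shorter of the deposited peak lists was used and the longer one was an alternative. Peaks of both libraries that overlapped by at least 1 base were merged into sites, and a site with a peak in both was shared. Starts and genes came from GENCODE M21 and sequence from RefSeq GRCm38 patch 6, which share coordinates with mm10. Words were searched on both strands in the central 200 bases of each site. Start peaks were described by their deposited heights and by ranks within a library. Python 3.11.15, numpy 2.4.6, pandas 2.3.3 and scipy 1.17.1 were used, and the counting was tested on simulated data. With 1 group of 2 libraries no p-value was computed, and the n of 2 limits every spread.

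All 10 genes are named. Of each other list, up to 3 genes with the highest mean percentile and up to 3 with no start peak are named, and of each gene its strongest start and gene-body sites. Not every gene that this rule picks is reported here. The genes and lists were chosen with earlier results of these data known.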

Additional observations from a re-analysis of the deposited data

How the results depend on the processing

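The count of 9 genes with a start peak in both libraries ranged from 8 with the stronger 50% of the peaks to 10 with the longer list. The 60 shared sites became 96 with the longer list, 35 with the stronger 50%, and 34 and 93 with flanks of 10 and 100 kb. Each library alone had 74 and 80. The median start peak percentile, 66.1, became 73.3 with the longer list, 48.7 with the stronger 50% and 62.2 with start windows of 250 bases, and was 64.8 to 70.2 with either library left out. The 10 shared gene-body sites became 28 with the longer list and 1 with the stronger 50%, and were 12 and 23 in single libraries. The share of sites with a footprint in both libraries, 78.3%, became 69.8% with the longer list, 91.4% with the stronger 50%, 86.8% with overlap by 50% of each peak and 86.7% inside merged sites. Single libraries gave 75.7% to 83.75%. The share with GGAATG, 20%, became 18.75% with the longer list, 25.7% with the stronger 50%, 22.6% with that overlap, 15% in windows of 100 bases and 8.33% for GGAATGT, and was 18.9% to 20% in single libraries. Over the genome, GGAATGT was in 2.13% of all shared sites and in 1.45% of all shared start sites. The 7 own start sites with the word became 4 in windows of 100 bases and 2 for GGAATGT, and 7 to 8 in single libraries. That count, the merged sites, TGACGTCA and the longer CTCF word were chosen after seeing the data. The cause of these moves was not tested, beyond the number of peaks each list holds. Depth is unknown, so a site absent from 1 library may lie below its limit of detection. No paired analysis was possible because the design has 1 group.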
